A study of Mus musculus with 44 samples.

Results

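The enzymes Bdh1, Acat1 and Oxct1 interconvert, make and use ketone bodies, and their transcripts were measured in liver and skeletal muscle of HFD-fed mice. The 3 genes were taken from a list of ketogenic and ketolytic enzymes by symbol, and each symbol led to 1 of the 38202 Ensembl identifiers counted: ENSMUSG00000046598 for Bdh1, ENSMUSG00000032047 for Acat1 and ENSMUSG00000022186 for Oxct1. All 3 passed the filter on low counts in both tissues. In both tissue comparisons Bdh1 and Acat1 were higher in liver and Oxct1 was higher in muscle, and none of the 3 differed past the threshold between genotypes in either tissue. The widest spread was that of Bdh1 in muscle, where its level ranged from 0.365 to 24.8 CPM, the reads of a gene scaled to a common library total, among WT mice of the same age, sex and diet.

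RNA-Seq was performed on 11 WT and 11 KO mice, all males on the C57BL/6N background, which were 20 weeks old and had received HFD for 15 weeks. The KO mice were homozygous for a constitutive CRISPR/Cas9 deletion in Slc16a13, a monocarboxylate transporter gene, so every cell type carried the deletion, and the WT mice were littermates. Per the study's methods, tissues were in general collected from fasted animals, and the labels give no other diet. Liver and muscle came from the same animals, which gave 44 poly(A) libraries in the groups Liver WT, Liver KO, Muscle WT and Muscle labelled KO, with 11 in each. The labels do not say which muscle was taken.

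Total counts ranged from 20150712 to 35218243 reads on genes per library. The deleted gene was checked first. Slc16a13 (ENSMUSG00000044367) had 99 to 302 reads in WT livers (median 149) and 0 to 8 in KO livers (median 3). In muscle it had 4 to 22 reads in WT libraries (median 12) and 11 to 40 in the libraries labelled KO (median 18). Reads were thus few in muscle and did not show the drop seen in KO livers. By the reads of Slc16a13, the muscle genotype therefore rests on the label, and those libraries are called muscle libraries labelled KO throughout. The counts are per gene, and the deletion covers the promoter and first exons but not the whole gene. Tissue identity matched the labels: 5 hepatocyte markers summed to between 72172 and 103109 CPM in WT livers and between 0.308 and 5.49 CPM in WT muscles, and 5 skeletal muscle fibre markers summed to between 71434 and 95219 CPM in WT muscles and between 1.5 and 28.6 CPM in WT livers. Of the hepatocyte markers, Apoa1, Ttr and Cps1 had a median of 0 in WT muscle. In 4 KO livers, from mice 532, 602, 583 and 611, the level of a gene relative to the mean over livers fell with gene length, with slopes of -0.53, -0.42, -0.25 and -0.08 in log2 CPM per doubling of length, whereas the WT livers had slopes of 0.04 to 0.10. The fitted differences of the 3 enzymes that use KO livers are therefore given with and without these 4 libraries. The muscle library labelled KO of mouse 602 also stood apart: 8 genes of spermatids (Tnp1, Tnp2, Prm1, Prm2, Akap4, Ldhc, Pgk2 and Odf1), chosen after their values were seen, summed to 357 CPM in it, to at most 21.6 CPM in the other muscle libraries labelled KO and to at most 0.243 CPM in WT muscles, and were at 0 in every liver.

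Ketone bodies are made in liver mitochondria from acetyl-CoA that fatty acid oxidation supplies during fasting. Acat1, the mitochondrial acetoacetyl-CoA thiolase, joins acetyl-CoA units at the start of the path, and at its end Bdh1 reduces acetoacetate to beta-hydroxybutyrate. In muscle, heart and brain the path runs the other way: Bdh1 oxidizes beta-hydroxybutyrate, Oxct1 activates acetoacetate with a CoA taken from succinyl-CoA, and Acat1 splits acetoacetyl-CoA into acetyl-CoA. Oxct1 is the step that hepatocytes are known to lack, and Bdh1 and Acat1 serve both directions.

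Promoter sequences are shown for the genes on opposite sides of the tissue comparison. RefSeq (GRCm38.p6) held a window of 250 bases before to 50 bases after a start for 2 of the 3 genes, with 2 starts for Bdh1 and 1 for Oxct1, all on the + strand. Acat1 was not matched. The windows are chr16:31422047-31422346 and chr16:31428503-31428802 for Bdh1 and chr15:4026178-4026477 for Oxct1. Lower case is plain sequence, and capitals mark a match to a motif searched.
Bdh1, first start: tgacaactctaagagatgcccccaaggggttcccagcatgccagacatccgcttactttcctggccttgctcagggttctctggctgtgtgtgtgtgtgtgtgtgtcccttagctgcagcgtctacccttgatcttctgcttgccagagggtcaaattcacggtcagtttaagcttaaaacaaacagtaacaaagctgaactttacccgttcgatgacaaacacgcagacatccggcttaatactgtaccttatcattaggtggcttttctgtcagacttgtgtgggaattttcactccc
Bdh1, second start: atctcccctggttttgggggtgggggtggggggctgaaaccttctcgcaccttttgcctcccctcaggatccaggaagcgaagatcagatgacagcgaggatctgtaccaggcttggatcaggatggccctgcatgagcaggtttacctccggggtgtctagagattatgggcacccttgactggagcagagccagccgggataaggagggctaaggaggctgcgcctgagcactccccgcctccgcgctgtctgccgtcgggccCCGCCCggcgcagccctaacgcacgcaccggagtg
Oxct1: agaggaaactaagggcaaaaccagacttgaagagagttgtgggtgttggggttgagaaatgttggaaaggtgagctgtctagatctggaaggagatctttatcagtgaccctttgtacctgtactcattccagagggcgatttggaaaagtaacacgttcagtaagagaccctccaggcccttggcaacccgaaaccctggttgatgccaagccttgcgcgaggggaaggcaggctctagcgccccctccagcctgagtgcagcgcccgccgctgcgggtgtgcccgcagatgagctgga
Both strands were searched for the nuclear receptor site AGGTCA, its extended form TCAAGGTCA, which contains the former, the CCAAT box (CCAAT), the E-box CACGTG, the GC box GGGCGG and the TATA box TATAAA. One match was found, a GGGCGG on the reverse strand (read as CCGCCC) at position 266 of the second Bdh1 window, 16 bases into the transcript counted from 1 at the start. Among all 32851 promoter windows of this length, 35.7% held GGGCGG, 16.3% AGGTCA, 0.423% TCAAGGTCA, 37.4% CCAAT, 7.15% CACGTG and 13.6% TATAAA. The GC content was 48.3% and 63.7% in the Bdh1 windows and 55.3% in the Oxct1 window, with a median of 52.7% over all windows. The gene counts do not show which Bdh1 start was used in which tissue.

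The first question was how the tissue that makes ketone bodies compares with a tissue that uses them. In WT liver, Bdh1 had 6133 to 12025 reads per library, which corresponds to 270 CPM at the lowest, 335 at the median and 376 at the highest (mean 337 ± 29.6, SD, n = 11). In WT muscle it had 9 to 644 reads, or 0.365, 4.13 and 24.8 CPM (mean 6.46 ± 7.21, SD, n = 11). The lowest liver thus stood above the highest muscle. CPM values were scaled with TMM factors over all 44 libraries. In the mice labelled KO, Bdh1 ranged from 252 through a median of 330 to 439 CPM in liver (mean 343 ± 56.1, SD, n = 11) and from 0.787 through 2.41 to 15.6 CPM in muscle (mean 4.23 ± 4.33, SD, n = 11), again without overlap. The log2 fold change of liver over muscle was 5.70 in WT mice (standard error 0.43, adjusted p = 3.1e-12 in the quasi-likelihood F-test of edgeR, adjusted by Benjamini-Hochberg over 13907 genes), which is 51.9-fold. This fit did not pair the tissues of a mouse, and with the animal as replicate block the log2 fold change was 6.14 in WT mice. Its size depended on the fit, with log2 values from 4.13 by DESeq2 to 6.43 with RPKM and a pseudocount of 0.1. In the mice labelled KO it was 6.34 (standard error 0.43, adjusted p = 8.1e-13 from edgeR over 13981 genes), and 6.26 without the 4 length-biased livers.

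Acat1 was the most even of the 3 enzymes across the tissues. WT livers held 673, 763 and 807 CPM at the lowest, median and highest (mean 759 ± 39.5, SD, n = 11), and WT muscles 134, 181 and 244 CPM (mean 184 ± 29.1, SD, n = 11). KO livers held 695, 768 and 973 CPM (mean 784 ± 89.0, SD, n = 11), and muscles labelled KO 157, 169 and 224 CPM (mean 174 ± 19.2, SD, n = 11). No muscle reached the lowest liver in either genotype. The log2 fold change of liver over muscle was 2.05 in WT mice (standard error 0.07, adjusted p = 3.2e-19 from edgeR), a 4.13-fold difference. In the mice labelled KO it was 2.19 (standard error 0.08, adjusted p = 1.9e-18 from edgeR) and 2.11 without the 4 length-biased livers.

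Oxct1 ran the opposite way. WT muscles had 5729 to 12384 reads and 255, 298 and 351 CPM at the lowest, median and highest (mean 297 ± 30.3, SD, n = 11), whereas WT livers had 61 to 161 reads and 3.10, 3.90 and 5.95 CPM (mean 3.94 ± 0.835, SD, n = 11). The same separation was seen in the mice labelled KO, with 237, 298 and 319 CPM in muscle (mean 292 ± 25.9, SD, n = 11) and 2.85, 4.06 and 6.33 CPM in liver (mean 4.21 ± 1.01, SD, n = 11). The log2 fold change of liver over muscle was -6.22 in WT mice (standard error 0.10, adjusted p = 1.5e-26 from edgeR), so that Oxct1 was 74.8-fold higher in muscle. It was -6.09 in the mice labelled KO (standard error 0.13, adjusted p = 3.4e-23 from edgeR) and -6.11 without the 4 length-biased livers. In bulk tissue, fewer cells of a type and less RNA per cell cannot be told apart.

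All 3 genes had CPM ranges that did not overlap between the tissues in WT mice and in mice labelled KO, against a background of 70.9% and 60.7% of all genes tested. In WT mice 45.5% of all genes were called higher in liver and 45.5% higher in muscle, and in mice labelled KO 43.9% and 42.8%. A call alone is therefore common in this comparison. Since the ranges did not overlap, each difference had to be present within every animal, and only the size of the folds is added here. Bdh1 was higher in liver than in muscle of the same mouse by 15.1-fold to 916-fold in the 11 WT mice (median 81.0) and by 16.1-fold to 535-fold in the 11 mice labelled KO (median 129). For Acat1 these folds ran from 3.31 to 5.59 in WT mice (median 4.31) and from 3.54 to 5.97 in mice labelled KO (median 4.54). Oxct1 was higher in muscle by 51.9-fold to 96.8-fold in WT mice (median 79.0) and by 49.1-fold to 109-fold in mice labelled KO (median 69.3). The fold thus varied most between mice for Bdh1 and least for Acat1. Without the muscle library of mouse 602 the log2 fold changes in mice labelled KO were 6.22 for Bdh1, 2.17 for Acat1 and -6.09 for Oxct1.

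**Figure D1:**
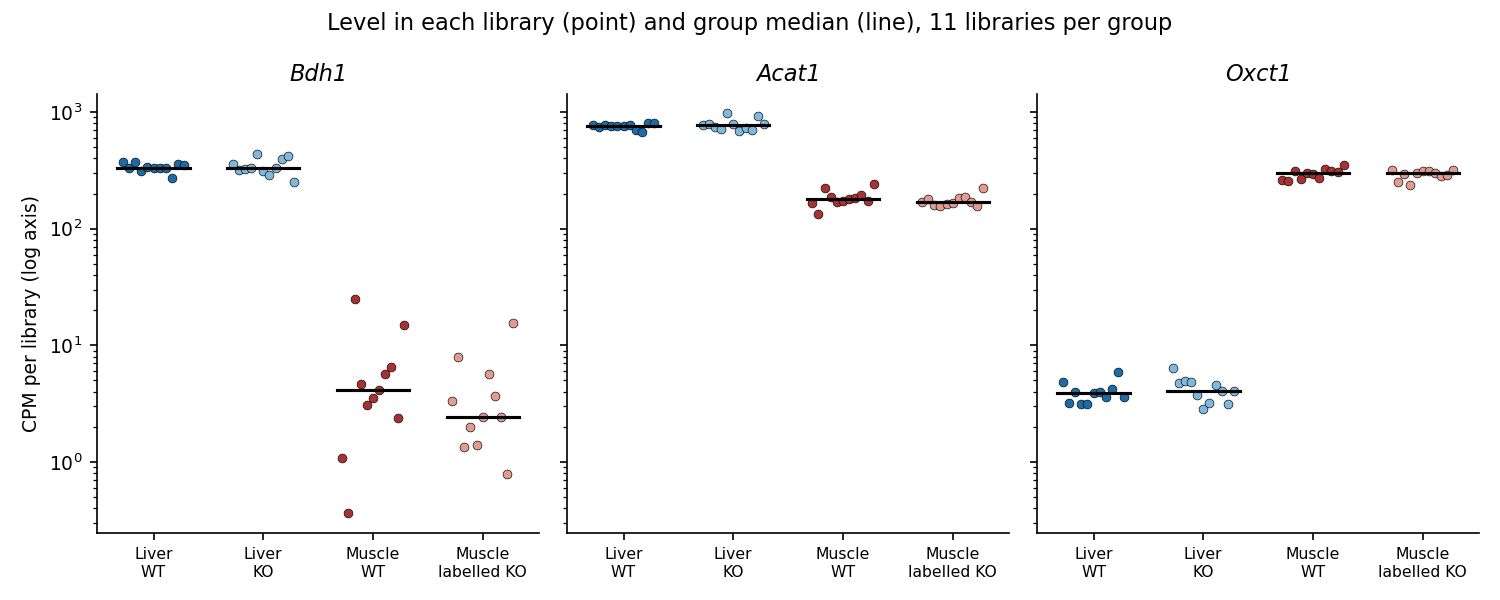
Level of Bdh1, Acat1 and Oxct1 in each library in CPM on a log axis, with 11 libraries per group as points and the group median as a line. Bdh1 spreads from 0.365 to 24.8 CPM in WT muscle, whereas Acat1 stays between 134 and 244 CPM and Oxct1 between 255 and 351 CPM in the same libraries.

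RNA carried over from the other tissue was estimated from its most abundant marker. If every Alb read in a muscle library came from liver tissue, that tissue would have brought at most 0.455 Bdh1 reads into any WT muscle and 0.649 into any muscle labelled KO, against lowest counts of 9 and 25. If every Acta1 read in a liver library came from muscle, at most 1.91 Oxct1 reads in WT livers and 0.961 in KO livers would have come with it, against lowest counts of 61 and 69. Genes annotated over Bdh1 and Oxct1 on the other strand had few reads: a median of 0 (highest 3) for Gm15743 over Bdh1, and medians of 5 (highest 28) and 0 (highest 0) for BC037032 and Gm15632 over Oxct1. Other cell types were present in WT livers, with summed markers of 257 to 343 CPM for Kupffer cells and macrophages, 199 to 239 CPM for endothelial cells and 136 to 314 CPM for stellate cells and fibroblasts, and their part in the Oxct1 reads of liver was not tested.

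Levels of different genes were compared per kilobase of gene, with the median length implied by the deposited counts and RPKM. Single libraries implied 1282 to 2640 bases for Bdh1, 1665 to 2225 for Acat1 and 1745 to 3353 for Oxct1. Comparisons between genes therefore hold for the median lengths. In WT liver the median was 370 CPM per kilobase for Acat1, 195 for Bdh1 and 1.66 for Oxct1. The ranges of the 3 genes over the WT livers did not overlap, so their order, Acat1 over Bdh1 over Oxct1, held beyond the spread between animals. In WT muscle the median was 127 CPM per kilobase for Oxct1, 87.7 for Acat1 and 2.41 for Bdh1. Here the ranges of Oxct1 (109 to 150) and Acat1 (65.1 to 118) overlapped, so these 2 were not separated by their spread alone, while Bdh1 (0.213 to 14.5) lay below both. By level per kilobase, Acat1 stood at place 199 and Bdh1 at place 388 of 13004 genes in WT liver, where Oxct1 stood at 9623. In WT muscle Oxct1 stood at place 396 and Acat1 at 569 of 13265 genes, and Bdh1 at 7203.

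Ratios within a library put the enzymes on 1 scale. Acat1 exceeded Oxct1 per kilobase by 154-fold to 278-fold in WT livers (median 224), whereas in WT muscles the ratio lay between 0.600 and 0.804 (median 0.709) and in muscles labelled KO between 0.608 and 0.802 (median 0.675). At the median lengths used, Oxct1 therefore stood above Acat1 in each of the 22 muscles. Acat1 over Bdh1 in WT livers was nearly constant at 1.71 to 2.07 (median 1.88). In KO livers it ran from 1.48 to 2.61 (median 1.84), and from 1.48 to 2.11 (median 1.89) in the 7 that are not length-biased. Oxct1 over Bdh1 in WT muscles ran from 9.23 to 509 (median 48.3), so in muscle these 2 enzymes of ketone body use were not held at 1 ratio.

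**Figure D2:**
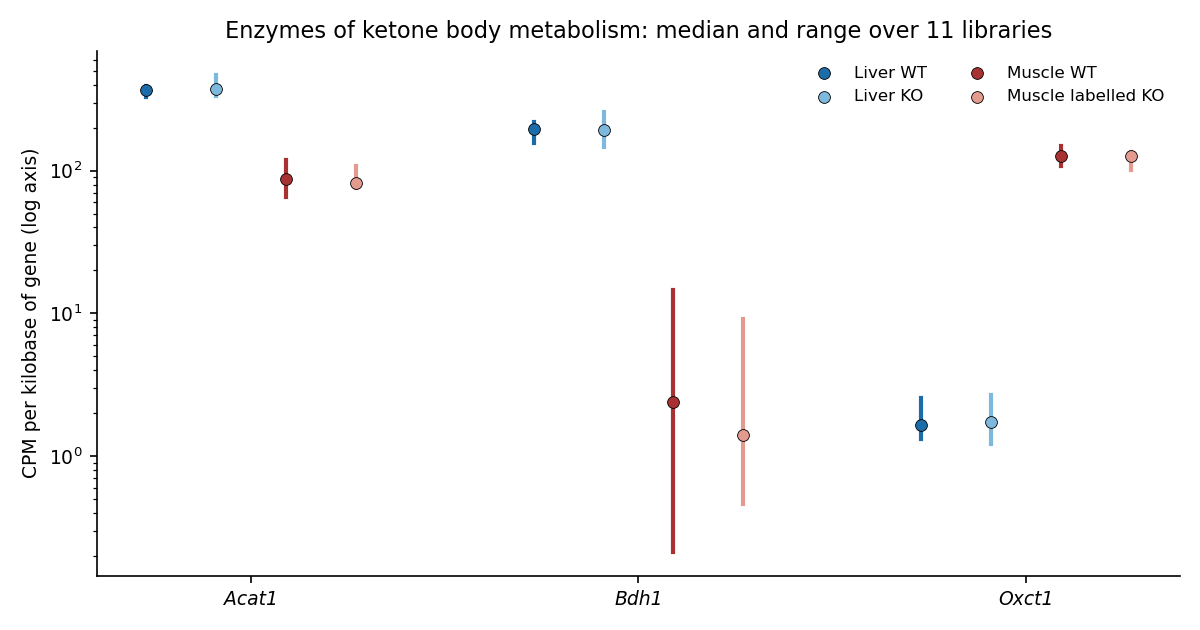
Median (point) and range (bar) over 11 libraries of Acat1, Bdh1 and Oxct1 in CPM per kilobase of gene, on a log axis, in the 4 groups. Acat1 and Bdh1 have higher medians in liver than in muscle, and Oxct1 is at 1.66 in WT liver and 127 in WT muscle.

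The second question was whether deletion of Slc16a13 changed these enzymes in liver, where 0.0231% of 13005 genes tested were called. None of the 3 was. The log2 fold change of KO over WT was 0.03 for Bdh1 (95% confidence interval -0.14 to 0.20, adjusted p = 0.85), 0.05 for Acat1 (-0.07 to 0.17, adjusted p = 0.61) and 0.10 for Oxct1 (-0.18 to 0.38, adjusted p = 0.66), all from edgeR. The ranges given above overlapped for each gene. Without the 4 length-biased KO livers the values were -0.03 for Bdh1, -0.04 for Acat1 and 0.08 for Oxct1, so the sign of the first 2 turned. The highest values of KO livers were in that set: for Bdh1, 439 CPM in mouse 583 and 421 CPM in mouse 602, and for Acat1, 973 and 924 CPM in the same 2 mice. Bdh1 was also lowest in that set, at 252 CPM in mouse 611.

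Across livers, Acat1 was lower where the slope on gene length was higher (Pearson r = -0.57, permutation p = 0.00917, adjusted p = 0.0229 over 15 relations; Spearman rho = -0.43, adjusted p = 0.0848; n = 22, levels centred on the group mean). Within WT livers r was 0.18 and within KO livers -0.62. The slopes of WT livers spanned only 0.04 to 0.10, against -0.53 to 0.11 in KO livers. That range is too narrow to show or exclude the relation within WT. Without the 2 libraries farthest from the median slope r was -0.70, and over the 18 livers that are not length-biased -0.50. Both values kept the centring on all livers of a group, so an offset between genotypes remained in them. They therefore do not show a relation within a genotype. For Bdh1 it was -0.42 (adjusted p = 0.0875 from the permutation test) and for Oxct1 -0.12 (adjusted p = 0.714 from the same test). The part of the slope in the KO values was not tested beyond leaving out these livers.

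The lists of pathway genes, 41 in all with the 3 enzymes among them, cover ketone body synthesis and use, related enzymes, transport, regulators and the supply of acetyl-CoA by fatty acid oxidation. Of these, 38 were tested in liver and 0 were called by edgeR (0 by each alternative as well), while 6 (15.8%) had an unadjusted p under 0.05, close to the 12.9% of all genes tested. Without the 4 length-biased livers 2 had one (5.26%, against 2.96% of all genes), Acat2 and Acat3, which share near-identical sequence, so that their counts are uncertain. The median log2 fold change was 0.05 over the pathway genes and -0.01 over all genes tested.

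In muscle, where 0.00754% of 13266 genes tested were called, none of the 3 enzymes differed past the threshold between libraries labelled KO and WT. The log2 fold change was -0.08 for Acat1 (95% confidence interval -0.24 to 0.08, adjusted p = 0.79) and -0.02 for Oxct1 (-0.14 to 0.09, adjusted p = 0.93), both from edgeR. For Bdh1 it was -0.59, with an interval of -1.70 to 0.52 (adjusted p = 0.77 from edgeR), which leaves a wide range of differences undecided. Single mice moved it: it was -0.12 without WT mouse 531, which had the highest value at 24.8 CPM, and -0.38 without WT mouse 624, which had 14.9 CPM, while it was -1.07 without mouse 611 of the libraries labelled KO, which had 15.6 CPM. Without mouse 602, with the lowest value of the libraries labelled KO, it was -0.48. Of the pathway genes 33 were tested and 0 called by edgeR (0 by each alternative), and 1, Sirt5, had an unadjusted p under 0.05 (3.03%, below the 8.64% of all genes tested). The median was -0.05 over these genes and 0.01 over all genes tested.

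A test of whether the genotype difference itself differed between liver and muscle gave 0.63 for Bdh1 (95% confidence interval -0.46 to 1.72, adjusted p = 0.53), 0.14 for Acat1 (adjusted p = 0.46) and 0.13 for Oxct1 (adjusted p = 0.62), from edgeR over 14739 genes, of which 0.00678% were called. Without the 4 length-biased livers the values were 0.55, 0.04 and 0.10. Of the 38 pathway genes tested 0 were called by edgeR and 8 (21.1%) had an unadjusted p under 0.05, against 16.2% of all genes, and without those livers 1 did (2.63%, against 4.80%). With DESeq2, 1 was called, Slc16a7, a transporter of lactate and ketone bodies, whose log2 value was -2.23 in edgeR (adjusted p = 0.20). It had 216 reads in the muscle of mouse 602 and at most 38 in the other muscles, and without that library the value was -1.15 (adjusted p = 0.33 from edgeR).

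**Figure D3:**
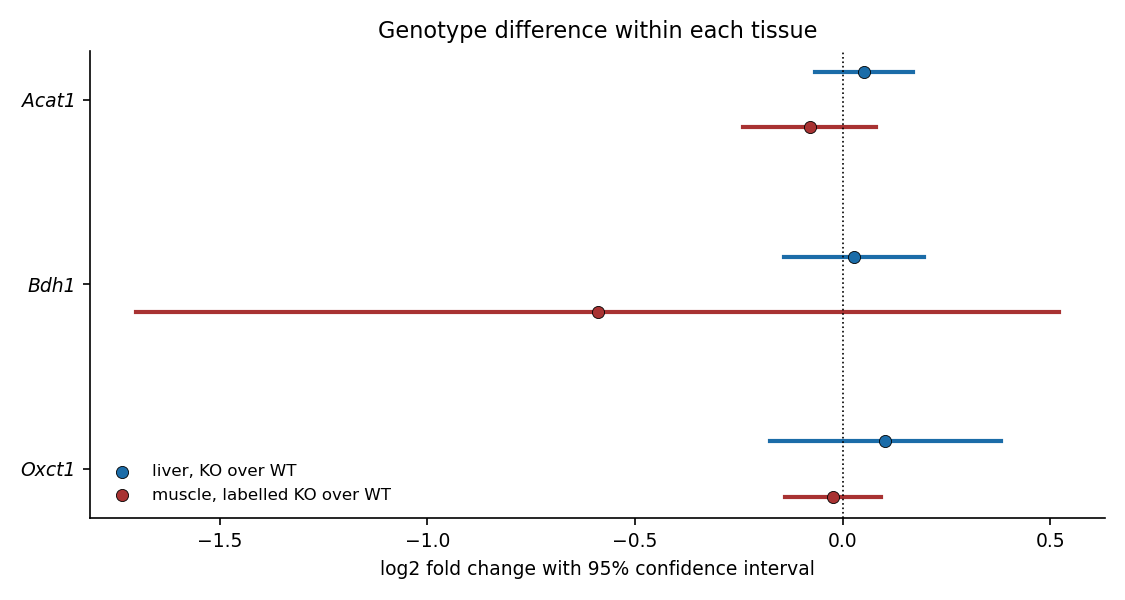
Log2 fold change of KO over WT in liver and of libraries labelled KO over WT in muscle (points) with 95% confidence intervals (bars), from edgeR with 11 libraries per group. Every interval spans 0, and that of Bdh1 in muscle runs from -1.70 to 0.52.

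The spread of Bdh1 in muscle was examined next. The standard deviation of its log2 CPM was 1.59 among the 11 WT muscles, larger than in 99.8% of the 13266 genes tested, whose median was 0.164. In the muscles labelled KO it was 1.21, larger than in 99.5% of genes. In WT livers the same gene had a standard deviation of 0.125, at the 29.9th percentile. Acat1 had 0.222 in WT muscle and 0.0739 in WT liver, and Oxct1 had 0.147 in WT muscle and 0.266 in WT liver, where few of its reads were counted. The high spread was thus found for Bdh1 in muscle, and not for Acat1 or Oxct1.

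The WT muscles with the most Bdh1 were those of mice 531 (24.8 CPM) and 624 (14.9 CPM), and the lowest were those of mice 516 (1.09 CPM) and 528 (0.365 CPM). The gene whose log2 CPM followed Bdh1 most closely over the 11 WT muscles was Myh2, which encodes the myosin heavy chain of type IIa fibres (Pearson r = 0.99). Myh2 had 1421 CPM in mouse 531, 122 CPM in mouse 516 and 30.8 CPM in mouse 528. In the 11 muscles labelled KO, which played no part in that choice, r was 0.92, and Myh2 stood at place 23 of 13265 genes by likeness to Bdh1. Without the 2 muscles farthest from the median, r was 0.98 in WT and 0.80 in those labelled KO. The next genes were Myoz2 (0.97 in WT and 0.92 in labelled KO), which encodes a sarcomere protein of the Z-disc, Pdlim1 (0.97 and 0.89), Atp1b1 (0.96 and 0.86), a subunit of the sodium pump, and Kctd1 (0.96 and 0.85). These are descriptions over 11 libraries each, with values that share library and scaling.

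Myh2 was itself among the genes of largest spread, with a standard deviation of 1.48 in log2 CPM in WT muscle, and it ranged from 30.8 through 315 to 1421 CPM in WT muscles and from 56.0 through 283 to 1212 CPM in muscles labelled KO. When Myh2 was added to the muscle fit, an alternative chosen after seeing the data, the Bdh1 difference between genotypes became 0.01 with a standard error of 0.16 (adjusted p = 0.99 from edgeR), in place of -0.59 with 0.54. The 5 markers of slow fibres summed to between 0.162 and 148 CPM in WT muscles (median 3.12) and between 0.252 and 10.8 CPM in muscles labelled KO (median 3.34), with none at a median of 0. The 5 markers of fast fibres, Myh2 included, summed to between 82582 and 113853 CPM and between 71020 and 111842 CPM. Mouse 531 was highest in the slow fibre list too. In the edgeR fit between muscles labelled KO and WT the 5 slow fibre markers had a median log2 fold change of -1.87, and 0 were called (lowest adjusted p = 0.49), while 5 had an unadjusted p under 0.05. Without WT mouse 531, where the Bdh1 difference was -0.12, the median was -0.02 and 0 had an unadjusted p under 0.05.

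Acat1 and Bdh1 rose and fell together across the muscles. Over 22 libraries, centred on the group mean, Pearson r was 0.93 (permutation p = 1e-05, the smallest that 100000 resamples can give, adjusted p = 1.5e-04) and Spearman rho was 0.94 (adjusted p = 1.5e-04 from the permutation test). It was 0.95 within WT and 0.90 within the libraries labelled KO, and 0.89 without the 2 libraries farthest from the median. Bdh1 and Oxct1 were related more loosely, with r = 0.50 (permutation adjusted p = 0.0397), 0.38 without the 2 farthest libraries, 0.75 within WT and 0.12 within the libraries labelled KO, so this relation did not hold within both groups. Acat1 and Oxct1 gave 0.59 (permutation adjusted p = 0.0124), 0.36 without the 2 farthest, and 0.73 and 0.35 within the groups. In each muscle these values share a library and its scaling.

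The mean log2 CPM of the slow fibre list was related to Bdh1 with r = 0.77 (permutation adjusted p = 4.5e-04, rho = 0.53), 0.59 without the 2 farthest libraries, 0.84 within WT and 0.61 within the libraries labelled KO. For Acat1 it was 0.71 (permutation adjusted p = 0.0029), 0.57 without the 2 farthest, 0.75 and 0.62. For Oxct1 it was 0.36 (permutation adjusted p = 0.149). The part that fibre make-up has in the Bdh1 and Acat1 values was not tested beyond these relations. The fit with Myh2 is no test of it for Bdh1, since Myh2 had the highest r with Bdh1 in the WT muscles.

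The genes most like Acat1 in WT muscle were Etfdh, which passes electrons from fatty acid oxidation to ubiquinone (r = 0.99 in WT and 0.97 in labelled KO), Fndc5 (0.98 and 0.93), Acadvl, the very long-chain acyl-CoA dehydrogenase (0.98 and 0.95), Ckmt2, the sarcomeric mitochondrial creatine kinase (0.98 and 0.97), and Uqcrc2 of complex III (0.98 and 0.90). Their places by likeness in the muscles labelled KO ran from 5 to 63 of 13265. For Oxct1 the closest was Fam20b (0.97 in WT and 0.80 in labelled KO, the latter 0.37 without the 2 farthest libraries). The other four, Dapk2, Rbbp8, Srr and Macf1, had 0.92 to 0.93 in WT but 0.32, 0.11, 0.51 and -0.24 in labelled KO, so their likeness was not seen again in the second set of mice.

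**Figure D4:**
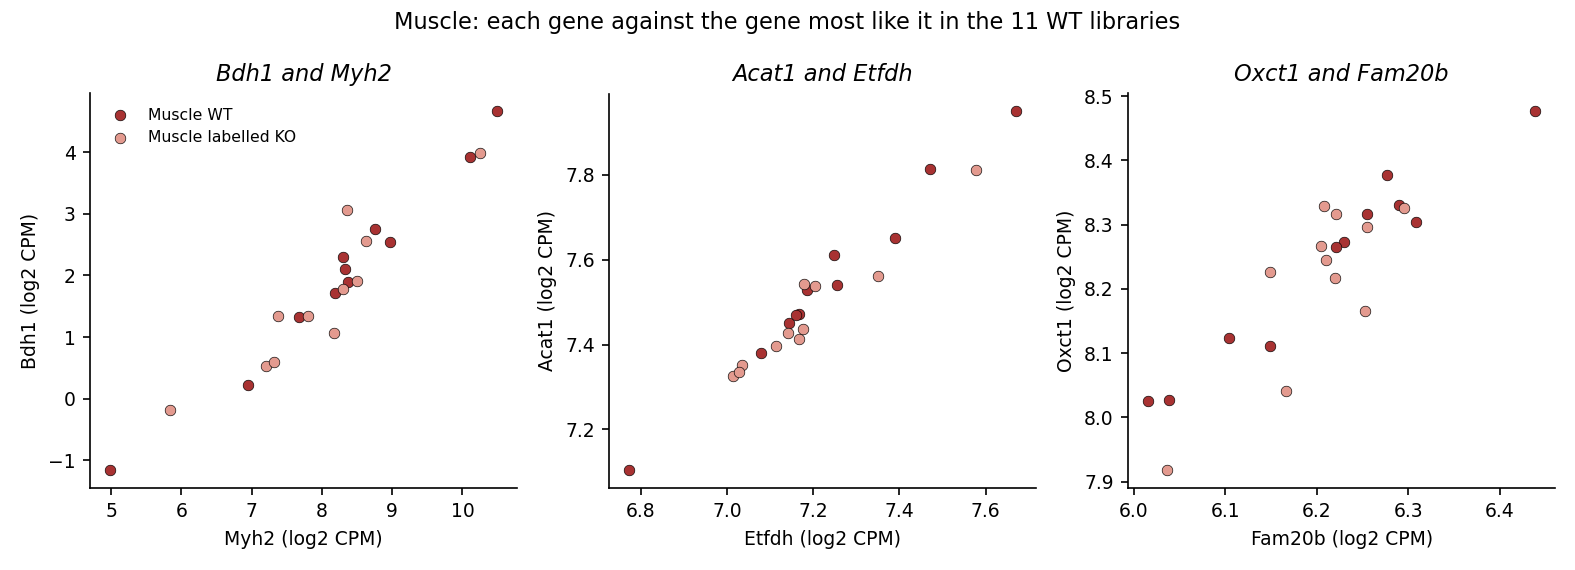
Log2 CPM of Bdh1, Acat1 and Oxct1 in the 22 muscles against the gene most like each of them in the 11 WT muscles, which are Myh2, Etfdh and Fam20b. In WT the points lie close to 1 line for Bdh1 with Myh2 (r = 0.99) and for Acat1 with Etfdh (0.99). In labelled KO r was 0.92 and 0.97 for these pairs, and 0.80 and 0.89 without the 2 farthest libraries. The points scatter more for Oxct1 with Fam20b.

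In liver, Bdh1 and Acat1 were related with r = 0.64 over 22 libraries (permutation adjusted p = 0.0066, rho = 0.46 with adjusted p = 0.0839), 0.64 without the 2 farthest libraries, 0.74 within WT and 0.63 within KO. Over the 18 livers that are not length-biased it was 0.42, with the centring on all livers of a group kept, so an offset between genotypes remained. With Oxct1 in liver, r was 0.07 for Bdh1 and -0.14 for Acat1, and neither passed (permutation adjusted p = 0.743 and 0.714). The genes most like the 3 enzymes in WT liver had r of 0.85 to 0.93, and in KO liver the same pairs ran from -0.52 to 0.64, with 3 of the 5 pairs of Acat1 (Thoc7, Rae1 and Rhoa) at 0.61 to 0.64 and the pairs of Bdh1 and Oxct1 at no more than 0.50. In the 7 KO livers that are not length-biased those 3 had r of -0.25, 0.16 and -0.47. Over the same 7 livers the pairs of Bdh1 ran from -0.91 to 0.74 and those of Oxct1 from -0.39 to 0.64.

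The other pathway genes placed Bdh1, Acat1 and Oxct1 among the tissue differences. Of 38 pathway genes tested in WT mice, 30 were higher in liver and 6 higher in muscle, with a median log2 fold change of 1.72 against 0.00 over all genes. Among all genes tested 45.5% were called higher in liver and 45.5% higher in muscle. An unadjusted p under 0.05 from edgeR was found for 94.7% of the pathway genes and 91.2% of all genes, so a difference as such was near the background. In mice labelled KO, 29 of 37 were higher in liver and 6 in muscle (median 1.86 against 0.02), against 43.9% and 42.8% of all genes tested. The genes higher in WT muscle were the lactate exporter Slc16a3 (-9.0), Oxct1, the muscle carnitine palmitoyltransferase Cpt1b (-5.52), the transporter subunits Emb (-1.58) and Bsg (-0.67), and the coactivator Ppargc1a (-1.13). Among transporters of ketone bodies, Slc16a1 (1.96), Slc16a6 (0.72) and Slc16a7 (8.31) were higher in liver. Of the 16 genes that supply acetyl-CoA, 13 were higher in liver and 1 in muscle, and Acadl (-0.14, adjusted p = 0.085 from edgeR) and Hadhb (0.03) did not pass. The regulators Ppara (5.70), Sirt3 (2.97) and Rxra (1.38) were higher in liver. The genes Hmgcll1, Oxct2a and Oxct2b did not pass the filter on low counts in any comparison. Oxct2a and Oxct2b, near-identical copies that are testis relatives of Oxct1, had a median of 0 reads in all 4 groups, but 88 and 95 reads in the muscle of mouse 602, against at most 3 and 5 in the other muscles labelled KO.

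**Figure D5:**
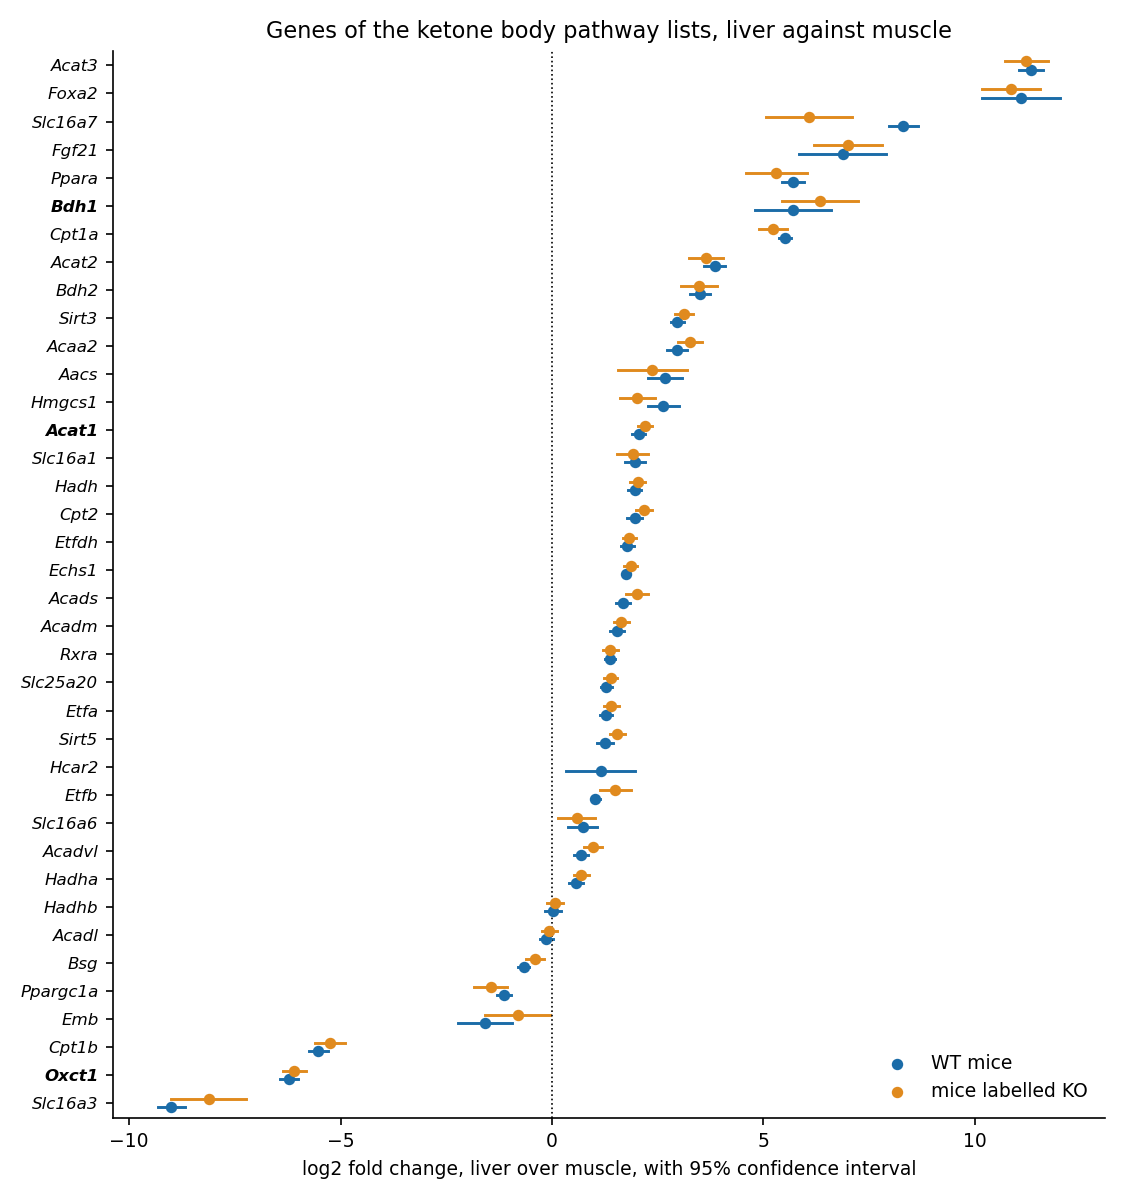
Log2 fold change of liver over muscle for the pathway genes tested in WT mice (blue) and mice labelled KO (orange), with 95% confidence intervals from edgeR, and with Bdh1, Acat1 and Oxct1 in bold. Of the 38 genes 30 are called to the right in WT mice, and Oxct1 at -6.22 is among the 6 called to the left. Of all genes tested 45.5% are called in each direction. The fitted values of genes with almost no reads in muscle, such as Acat3 and Foxa2, depend on the prior count.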

How the data were processed

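All 44 libraries were used, a liver and a muscle library from each of 11 WT and 11 KO mice. Groups and animal numbers came from the labels. The authors deposited raw read counts for 38202 genes and a table of RPKM values, that is reads scaled to gene length and library total by the authors. The libraries were stranded per the study's methods, and the labels name limma as a processing tool. The aligner, counter, genome build and annotation are not given in the sources used here. Symbols were taken from a table of identifiers (36340 matched), and overlapping genes from GENCODE.

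Counts were tested in R 4.3.3 with edgeR 4.0.16 (filterByExpr, TMM, quasi-likelihood F-test, Benjamini-Hochberg adjustment over all genes tested, threshold 0.05). Comparisons within a tissue used its 22 libraries, those between tissues the 22 libraries of a genotype, and the interaction all 44. The main fits between tissues and of the interaction did not pair the libraries of a mouse. Gene length was the median implied by both tables. Of well measured values, 11.5% implied a length more than 10% off that median, so RPKM served only as an alternative. CPM are counts scaled to the TMM-adjusted library total, and log2 CPM used a prior count of 2. Relations were tested by two-sided permutation with 100000 resamples. Where libraries were left out of a relation, the levels kept their centring on the full group. The genes most like each member were the 5 with the highest Pearson r over the 11 WT libraries of a tissue. Other genes named are those of the pathway and marker lists, Slc16a13, and genes singled out by likeness. Some genes of the pathway lists are not reported here and were left out of the list counts. The genes, lists and tests were chosen with earlier results of these data known.

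Alternatives were DESeq2 1.42.0, limma 3.58.1 with voom, no filter, scaling by library size, at least 10 counts in all libraries, gene length removed by loess, RPKM with pseudocounts of 0.1 and 1, the animal as replicate block, each library left out in the genotype comparisons within a tissue, and the length-biased KO livers left out. The fits with Myh2 and without the muscle of mouse 602 were added after seeing the data. Pairing rests on the animal number shared by both tissues. Deviations of liver and muscle of a mouse from their group means correlated over genes by -0.01 to 0.12 (median 0.05). Each liver was compared with the 11 muscles of its genotype, and 10 of 22 livers correlated best with their own muscle. No replicate pair agreed within counting noise (chi-square per gene at least 4.47). Total counts of 20150712 to 35218243 left few reads for Oxct1 in liver. The procedures were tested on simulated data.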

Additional observations from a re-analysis of the deposited data

Results flagged for a closer look

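The genotype difference of Slc16a13 differed between the tissues, with an interaction of -6.08 on the log2 scale (standard error 0.38, adjusted p = 5.9e-16 in edgeR). The log2 fold change was -5.45 in liver (adjusted p = 2.8e-11 from edgeR) and 0.64 in muscle libraries labelled KO (adjusted p = 0.49 from edgeR). No such difference was found for Bdh1, Acat1 or Oxct1. Slc16a13 had 4 to 22 reads in WT muscles against 99 to 302 in WT livers, so muscle left little room for a drop. The counts are per gene, and the deletion does not cover the whole gene. Groups of 11 libraries were not searched for single outlying samples beyond the slopes on gene length, the spermatid genes and the fits that left out single libraries.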

How the results depend on the processing

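Bdh1, Acat1 and Oxct1 kept their direction and their call in both comparisons of liver with muscle under each alternative run that gave a value, and none of the 3 was called between genotypes or in the interaction under any. The sign of small genotype differences did turn. In liver, Bdh1 changed from 0.03 to -0.041 with library size alone, -0.020 with gene length removed, -0.093 and -0.092 with RPKM pseudocounts of 0.1 and 1, and -0.033 without the length-biased KO livers. Acat1 changed from 0.05 to -0.014 with library size alone and -0.036 without those livers, and Oxct1 from 0.10 to -0.12 and -0.079 with the RPKM pseudocounts. In the interaction, Oxct1 became -0.090 and -0.046 with the RPKM pseudocounts. Hadhb between tissues became -0.011 with library size alone and -0.30 with gene length removed in WT mice, and -0.059, -0.39, -0.095 and -0.095 with library size alone, gene length removed and the RPKM pseudocounts in mice labelled KO. Removing gene length moved the median of all genes between tissues to -0.18 in WT mice. With Myh2 as covariate, Bdh1 in muscle became 0.011. The relation of Acat1 with the slope on gene length became 0.18 within WT livers. The causes were not tested.

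In the genotype comparisons, leaving out 1 library at a time gave log2 fold changes in liver of -0.0018 to 0.074 for Bdh1, 0.031 to 0.071 for Acat1 and 0.033 to 0.18 for Oxct1. In muscle the values were -1.07 to -0.12 for Bdh1, -0.12 to -0.031 for Acat1 and -0.044 to 0.0039 for Oxct1. With the animal as replicate block, the paired fits gave 6.14 for Bdh1, 2.06 for Acat1 and -6.24 for Oxct1 in WT mice, and changed no call of Bdh1, Acat1 or Oxct1.

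The number of genes called was small between genotypes and varied. In liver it was 3, with 6 by DESeq2 and 1 with a minimum of 10 counts. In muscle it was 1, with 0 by limma-voom, without a filter, with a minimum of 10 counts and with either RPKM pseudocount. In the interaction it was 1, with 44 by DESeq2, 3 with library size alone, 0 with a minimum of 10 counts, and 2 with gene length removed, either RPKM pseudocount or without the length-biased KO livers. DESeq2 called 1 pathway gene in the interaction in place of 0. Bdh1 has no value with a minimum of 10 counts in comparisons with WT muscle, where its lowest count was 9. Few reads limit Oxct1 in liver, and the spread between animals limits Bdh1 in muscle.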

Other observations

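Bdh1 in liver and in muscle of the same mouse were compared as well. Over 22 mice, centred on the group mean, Pearson r was -0.45 (permutation p = 0.0351, adjusted p = 0.0658 over 15 relations) and Spearman rho was -0.44 (adjusted p = 0.0848 from the permutation test). Pearson r was -0.04 within WT mice and -0.81 within mice labelled KO, and the relation did not pass the adjusted threshold. It was -0.28 without the 2 mice farthest from the median, and -0.14 over the 18 mice whose livers were not length-biased. Both of these kept the centring on all mice of a group, so an offset between genotypes remained in them. Acat1 gave -0.09 and Oxct1 -0.11 over the same mice (permutation adjusted p = 0.737 and 0.714).

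The genes called between genotypes were Slc16a13, Mup5 and Scp2-ps2 in liver and Slc16a11 in muscle, named here after their values were seen, and none belongs to the pathway lists. Slc16a11 was higher in the muscles labelled KO, and the paper describes it as a neighbour of Slc16a13 on the same chromosome. What this call means for the muscle labels was not tested.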
